A study of Homo sapiens with 12 samples.

Results

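The MAP kinase feedback genes followed here are 9 genes whose products switch off or dampen RAS and MAP kinase signalling: the dual-specificity phosphatases DUSP1, DUSP4, DUSP5, DUSP6 and DUSP10, the Sprouty genes SPRY2 and SPRY4, and the SPRED genes SPRED1 and SPRED2. They were chosen by name, with earlier results of these data known. All 9 are among the 13410 genes listed for the first set of libraries and among the 11504 listed for the second. RNA was sequenced from MCF-12A cells, an immortal line of human mammary epithelium that does not form tumours, given TGFbeta1 (6 libraries) or vehicle (6 control libraries). TGFbeta1 is a secreted cytokine that signals through SMAD proteins and, in many epithelial cells, also through MAP kinases. Replicates 1 to 3 of each group form the first set and replicates 4 to 6 the second, and each set has a deposited table of its own, with its own list of transcripts. Dose, duration and the nature of the vehicle are not given in the labels. The labels do not say whether replicates were separate cultures, so the p-values cover no more than the spread among these libraries, which may be technical. In bulk RNA, fewer cells that express a gene and less of its RNA per cell cannot be told apart.

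In the MAP kinase cascade, RAS recruits RAF, RAF activates MEK, and MEK activates ERK by phosphorylating a threonine and a tyrosine. The p38 and JNK branches are built in the same way. Dual-specificity phosphatases remove both phosphates. DUSP6 acts in the cytoplasm and prefers ERK, DUSP5 acts on ERK in the nucleus, DUSP1 and DUSP4 are nuclear enzymes of broader range, and DUSP10 prefers p38 and JNK. Sprouty proteins block signalling between growth factor receptors and RAF, and SPRED proteins recruit the RAS inhibitor neurofibromin to the membrane. Several of these genes are transcribed in response to ERK activity itself, which makes them a negative feedback and common readouts of ERK output. DUSP1 is also an immediate-early gene induced by stress and by cyclic AMP signalling.

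On hg19, per the files, DUSP1 (ENSG00000120129.5_1) lies on chromosome 5, 172195093 to 172198198, on the minus strand. DUSP6 (ENSG00000139318.7_1) lies on chromosome 12, 89741009 to 89747048, also on the minus strand. DUSP5 lies on chromosome 10, 112257596 to 112271302, SPRY2 on chromosome 13, 80910111 to 80915086, and SPRED2 on chromosome 2, 65537985 to 65659771. These spans run over the listed protein-coding transcripts. The DUSP6 sum joins transcripts that differ in their coding exons, so their splice junctions are shown first, from the GENCODE v29 transcripts on GRCh38, with 15 bases on each side and the bases after the junction in capitals. ENST00000279488 has 3 exons, and ENST00000308385 leaves out the middle one, of 438 bases (chromosome 12, 89350588 to 89351025 on GRCh38), so that exon 1 runs straight into the last exon.
DUSP6 ENST00000279488, exon 1 to exon 2: cgttctacctggaagGTGGCTTCAGTAAGT
DUSP6 ENST00000279488, exon 2 to exon 3: ccatttctttcatagATGAAGCCCGGGGCA
DUSP6 ENST00000308385, exon 1 to exon 2: cgttctacctggaagATGAAGCCCGGGGCA
The last of these junctions is the one that only the exon-skipping form holds.

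The DUSP1 promoter is shown because DUSP1 was the most abundant of the genes and, in the second set, the one with the narrowest spread. RefSeq promoters (250 bases before to 50 after the start, build GRCh38.p14) matched 7 of the 9 genes, with 11 promoters in all. DUSP4 and DUSP5 had no entry. The DUSP1 promoter lies at chr5:172771146-172771445 on the minus strand, and the capitals mark the cyclic AMP response element TGACGTCA.
DUSP1 promoter: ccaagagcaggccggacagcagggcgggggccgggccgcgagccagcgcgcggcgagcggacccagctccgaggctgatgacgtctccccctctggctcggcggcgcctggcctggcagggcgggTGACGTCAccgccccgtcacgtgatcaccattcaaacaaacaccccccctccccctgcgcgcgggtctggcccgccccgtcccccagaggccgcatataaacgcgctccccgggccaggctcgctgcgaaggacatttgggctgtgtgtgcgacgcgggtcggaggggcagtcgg
Both strands were searched for TGACGTCA, and for TGANTCA, a loose form of the AP-1 motif with any base at N. They were also searched for the SMAD palindrome GTCTAGAC and for the CArG box, which serum response factor binds. No matches overlapped in DUSP1. TGACGTCA was found in 1 of the 11 promoters, that of DUSP1, where it begins at position -125 from the start, and in 1.85% of 35116 promoters of the same length. TGANTCA was found in 1, a promoter of SPRED2, against 7.71% of all promoters. The SMAD palindrome (0.202% of all promoters) and the CArG box (1.29%) were in none of the 11. These matches describe letters only.

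DUSP1 and DUSP6 were the most abundant of the 9 genes in both groups of both sets, and SPRY4 and SPRED1 the least abundant. FPKM is scaled per length, so levels can be compared between genes. In the first set, TGFbeta1 libraries averaged 30.9 FPKM for DUSP1, 27.4 for DUSP6 and 15.8 for DUSP4, and then 11.4 for SPRED2, 10.2 for DUSP5, 6.9 for DUSP10, 5.98 for SPRY2, 3.4 for SPRED1 and 0.996 for SPRY4. Neighbours in that order separated beyond their ranges only between DUSP6 and DUSP4, DUSP4 and SPRED2, and SPRY2 and SPRED1. The order in the first set's controls was DUSP1, DUSP6, DUSP4, DUSP5, SPRED2, SPRY2, DUSP10, SPRED1 and SPRY4, and there only DUSP10 separated from SPRED1, and SPRED1 from SPRY4. Libraries labelled TGFbeta1 in the second set averaged 85.2 FPKM for DUSP1, 32.2 for DUSP6, 25.4 for DUSP5, 16.2 for DUSP4, 12.1 for SPRY2, 10.6 for SPRED2, 6.1 for DUSP10, 5.42 for SPRY4 and 3.49 for SPRED1. All neighbours in that order separated except SPRY2 from SPRED2 and DUSP10 from SPRY4. The controls of the second set had the same order except that DUSP4, at 19.5 FPKM, stood before DUSP5, at 19.2, with overlapping ranges. SPRY4 and SPRED1 also overlapped there.

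Targets of TGFbeta signalling set the background for what follows, but they were chosen with earlier results of these data known. Their rise in the first set is therefore not an independent check. In the first set, all 3 check genes rose with TGFbeta1. The inhibitory SMAD gene SMAD7 was at 4.35 ± 0.588 FPKM with TGFbeta1 and 1.22 ± 0.189 FPKM in controls (SD, n = 3 each), a log2 change of 1.27 (limma, adjusted p = 0.00199). The SMAD co-repressor gene SKIL changed by 1.87 on the log2 scale and the integrin subunit gene ITGB6 by 3.70. In the second set, none of the 3 passed the test and none did so at an unadjusted p under 0.05, with log2 changes of -0.16 for SMAD7, -0.08 for SKIL and 0.02 for ITGB6. The difference between the sets passed the test for all 3, with second minus first log2 changes of -1.42 for SMAD7, -1.95 for SKIL and -3.68 for ITGB6 (adjusted p of 2e-06 to 0.00024). For that reason the second set's treated libraries are called "labelled TGFbeta1". All 7 epithelial markers were listed in both sets, and their summed level ran from 1709.9 to 2019.7 FPKM with TGFbeta1 against 2222.1 to 2848.8 in controls of the first set, and from 1686.2 to 1846.5 against 1601.7 to 1820.8 in the second. In the first set EPCAM, KRT5 and KRT18 fell, and the other 4 did not pass the test, with log2 changes of -0.66 for CDH1, -0.30 for KRT14, 0.82 for KRT8 and 0.28 for TP63. Of 6 fibroblast markers, 2 were listed in the first set (COL1A1 and DCN, both higher, summed 13.7 to 16.9 FPKM with TGFbeta1 against 1.56 to 1.84 in controls). In the second set 3 were listed (12 to 15.7 FPKM in libraries labelled TGFbeta1 against 28.6 to 32.6 in controls). Most of that sum was DCN, which fell to 12.4 ± 1.82 FPKM in libraries labelled TGFbeta1, against 28.6 ± 1.97 FPKM in controls (SD, n = 3 each, limma, adjusted p = 0.0380). Without control 4, and with the replicate number as a block, no gene of the second set was called, DCN included. COL1A1, at 0.713 and 0.439 FPKM in the same groups, was under the limit of 1 FPKM and not tested. Of 8 leukocyte and endothelial markers, PTPRC, CD3E, PECAM1, CDH5 and VWF were listed in neither set. The sum of the rest ran from 0.57 to 0.782 FPKM with TGFbeta1 against 2.69 to 3.37 in controls of the first set, where CD14 fell, and from 8.91 to 9.44 against 5.32 to 7.37 in the second, where none passed the test. The part of these markers in the values below was not tested.

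None of the feedback genes passed the test of TGFbeta1 against control in either set (limma, Benjamini-Hochberg adjusted p under 0.05 over all genes tested). In the first set 8 of the 9 had a mean of at least 1 FPKM and were tested, against a background of 20.9% of 10454 genes called in either direction, and SPRY4 fell under that limit. In the second set all 9 were tested, against a background of 0.321% of 10579 genes. At an unadjusted p under 0.05 the first set had 1 of the 8 (DUSP6), where 35.0% of all genes stood under it, and the second set had 5 of the 9 (DUSP1, DUSP4, DUSP5, DUSP10 and SPRY2), where 11.2% of all genes did. The median log2 change of the genes tested was 0.47 in the first set, beside -0.05 over all genes tested, and -0.03 in the second, beside -0.00 over all genes tested. The highest values behind the first set's median, 0.85 for SPRED2 and 0.77 for SPRY2, came with a single far lower library, control 1.

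**Figure D1:**
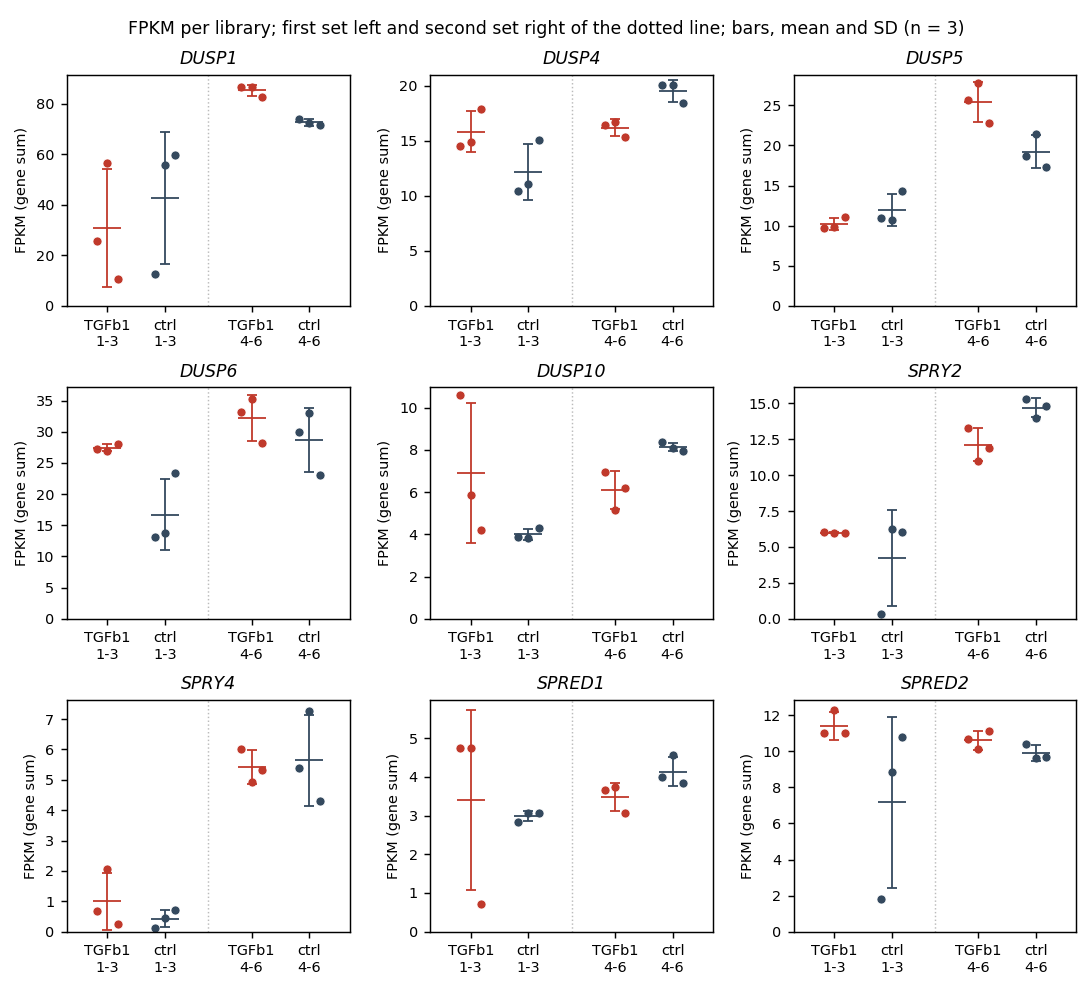
FPKM of each feedback gene (y axis, sum over listed transcripts) in every library, with TGFbeta1 libraries in red to the left of controls in dark blue, and the first set left of the dotted line; bars give the mean and SD of 3 libraries. DUSP6 separates the groups in the first set at 26.9 to 28 FPKM with TGFbeta1 and 13.1 to 23.3 in controls, and DUSP1 in the second set at 82.6 to 86.6 FPKM in libraries labelled TGFbeta1 and 71.5 to 74.1 in controls.

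DUSP6, the cytoplasmic ERK phosphatase, came nearest to a call in the first set. It was at 27.3, 26.9 and 28 FPKM in TGFbeta1 libraries 1, 2 and 3, against 13.1, 13.8 and 23.3 FPKM in controls 1, 2 and 3. All TGFbeta1 libraries lay above all controls, and control 3 lay nearer to the TGFbeta1 libraries than to the other controls. The log2 change was 0.72 (SE 0.22, 95% interval 0.18 to 1.26, adjusted p = 0.0707). Without control 3 the log2 change was 0.97 and passed the test (adjusted p = 0.00207), and with libraries rescaled to an equal FPKM sum it was 0.81 (adjusted p = 0.0461). Under the other 14 alternatives of the first set it did not pass. DUSP6 in the second set was at 33.2, 35.3 and 28.2 FPKM in libraries labelled TGFbeta1 4, 5 and 6, against 30.0, 33.0 and 23.1 FPKM in controls 4, 5 and 6. The groups overlapped there, with a log2 change of 0.17 (SE 0.15, 95% interval -0.20 to 0.55, adjusted p = 0.728). The difference between the sets in the DUSP6 change was -0.55 (SE 0.28, adjusted p = 0.253), and it passed the test without control 3 (-0.80, adjusted p = 0.0248).

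The transcripts of DUSP6 differed in share between the sets. The long form ENST00000279488 held 96.9% of the DUSP6 FPKM in the first set and the exon-skipping form ENST00000308385 held 0.933%. In the second set the long form held 75.9% and the exon-skipping form 17.1%. In the first set the exon-skipping form was listed at 0, 0.439 and 0 FPKM in TGFbeta1 libraries 1 to 3 and at 0.795, 0 and 0 in controls 1 to 3. Second-set values were 5.79, 8.23 and 4.30 FPKM in libraries labelled TGFbeta1 4 to 6, against 4.86, 4.83 and 3.28 FPKM in controls 4 to 6. This form was therefore low in both groups of the first set and present in every library of the second, and the tables differ in the lowest mean FPKM they list for any transcript (0.025 in the first, 0.25 in the second), so the share was not tested between them. Within a set the long form had a log2 change of 0.73 in the first (adjusted p = 0.176 over transcripts) and 0.13 in the second (adjusted p = 0.866), and the exon-skipping form one of 0.39 in the second (adjusted p = 0.826). No transcript of the 9 genes passed the test over transcripts, where 5.54% of 18113 transcripts in the first set and 0.221% of 20392 in the second were called. Without control 3, 1 transcript of these genes was called higher in the first set.

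**Figure D2:**
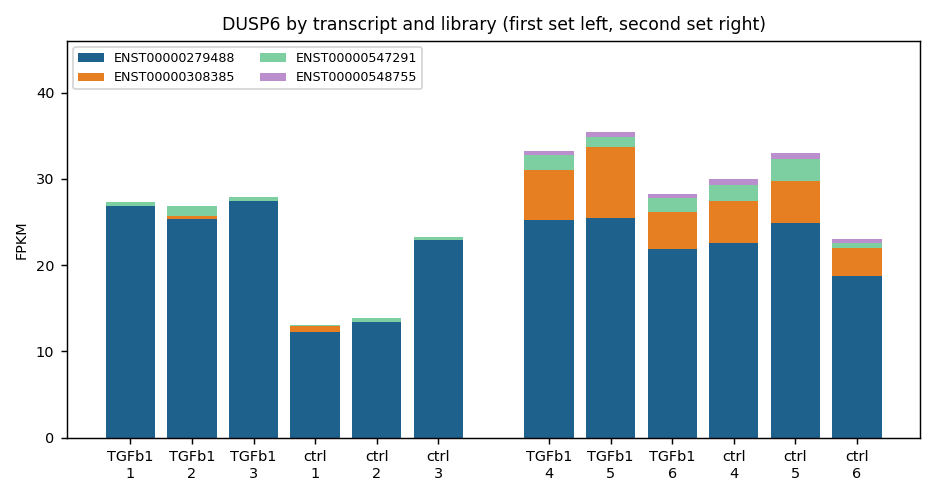
Stacked bars of DUSP6 FPKM (y axis) by transcript in each library, with TGFbeta1 libraries left of controls within each set. The exon-skipping transcript in orange is at 3.28 to 8.23 FPKM in every library of the second set and at 0 to 0.795 in those of the first.

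DUSP1 differed between libraries of the same group more than any other of the genes in the first set. It was at 25.6, 56.4 and 10.7 FPKM in TGFbeta1 libraries 1, 2 and 3, against 12.8, 55.7 and 59.7 FPKM in controls 1, 2 and 3. Both groups held high and low libraries and the ranges overlapped almost fully. The log2 change was -0.47 (SE 0.81, 95% interval -2.47 to 1.53, adjusted p = 0.724), so neither a large rise nor a large fall can be told from none at this spread. Without TGFbeta1 3 the log2 change turned to 0.11. Its SD within groups was 1.18 on the log2 scale, wider than that of 98.3% of all genes tested (median 0.16). That scale understates the spread of low genes, and SPRY2, with a single far lower library, followed at 0.98. DUSP1 in the second set was at 86.6, 86.6 and 82.6 FPKM in libraries labelled TGFbeta1 4 to 6, against 74.1, 72.3 and 71.5 FPKM in controls 4 to 6. The groups did not overlap, and the log2 change was 0.23 (SE 0.05, 95% interval 0.11 to 0.34, adjusted p = 0.167). Here the SD within groups was 0.03, narrower than that of all but 2.23% of genes (median 0.14). In the authors' deposited table the DUSP1 transcript of the second set had a log2 fold change of 0.228 and a q-value of 0.223, the lowest q-value among the transcripts of these genes.

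DUSP4 and DUSP5, both nuclear phosphatases, had log2 changes of opposite sign in the 2 sets, none of which passed the test. DUSP4 was at 14.5, 14.9 and 17.9 FPKM in TGFbeta1 libraries 1 to 3, against 10.4, 11.1 and 15.1 FPKM in controls 1 to 3, with control 3 inside the TGFbeta1 range. Second-set values were 16.4, 16.7 and 15.3 FPKM in libraries labelled TGFbeta1 4 to 6, against 20.1, 20.1 and 18.4 FPKM in controls 4 to 6, with no overlap. The log2 changes were 0.36 in the first set (SE 0.16, adjusted p = 0.181, and 0.51 with adjusted p = 0.0468 without control 3) and -0.26 in the second (SE 0.07, adjusted p = 0.270). The difference between the sets for DUSP4, second minus first, was -0.61 (SE 0.18, adjusted p = 0.0538), and 13.6% of 10548 genes were called in that test. It passed the test under all 3 other scalings (-0.66 to -0.72, adjusted p of 0.0247 to 0.0363) and without control 3 (-0.77, adjusted p = 0.00541).

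DUSP5 was at 9.75, 9.82 and 11.1 FPKM in TGFbeta1 libraries 1 to 3, against 11.0, 10.7 and 14.3 FPKM in controls 1 to 3, and the ranges overlapped. Second-set values were 25.7, 27.8 and 22.8 FPKM in libraries labelled TGFbeta1 4 to 6, against 18.7, 21.4 and 17.3 FPKM in controls 4 to 6, with every labelled library above every control. Its log2 changes were -0.20 in the first set (SE 0.13, adjusted p = 0.319) and 0.39 in the second (SE 0.11, adjusted p = 0.290). Second minus first, the change of DUSP5 differed by 0.59 (SE 0.18, adjusted p = 0.0530), with calls without control 2 (adjusted p = 0.0467), control 5 (0.0451) or TGFbeta1 6 (0.0472). GENCODE v29 names 2 pseudogenes of DUSP5, DUSP5P1 and DUSP5P2, so reads may be shared with them.

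DUSP10, the phosphatase that prefers p38 and JNK, was at 10.6, 5.88 and 4.2 FPKM in TGFbeta1 libraries 1 to 3, against 3.85, 3.84 and 4.30 FPKM in controls 1 to 3. The controls were close together, TGFbeta1 1 stood high, and TGFbeta1 3 lay among the controls. DUSP10 in the second set was at 6.95, 5.17 and 6.17 FPKM in libraries labelled TGFbeta1 4 to 6, against 8.35, 8.10 and 7.94 FPKM in controls 4 to 6, with no overlap. The log2 changes were 0.58 in the first set (SE 0.30, 95% interval -0.15 to 1.31, adjusted p = 0.225) and -0.37 in the second (SE 0.11, 95% interval -0.64 to -0.11, adjusted p = 0.303). Between the sets the DUSP10 change differed by -0.95 (SE 0.33, adjusted p = 0.0913), and -1.21 without TGFbeta1 3 (adjusted p = 0.0175).

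**Figure D3:**
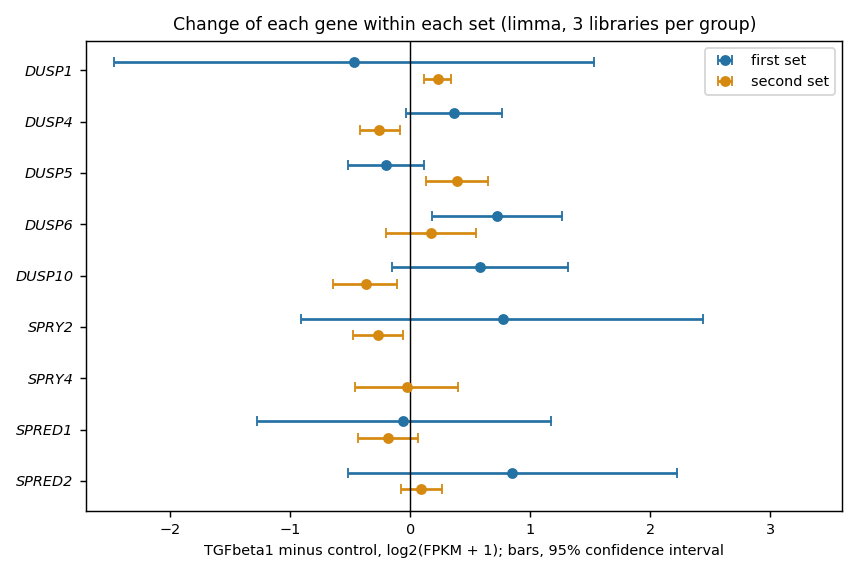
Log2 change of each feedback gene, TGFbeta1 minus control on log2(FPKM + 1) (x axis), in the first set (blue) and the second set (orange), with unadjusted 95% confidence intervals from limma on 3 libraries per group. The first set's intervals are the wider, from -2.47 to 1.53 for DUSP1, and SPRY4 has no point there because it was under 1 FPKM.

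SPRY2, the Sprouty gene with the higher level, was at 6.01, 5.98 and 5.95 FPKM in TGFbeta1 libraries 1 to 3, against 0.355, 6.27 and 6.03 FPKM in controls 1 to 3. A single library, control 1, stood apart from 5 that were almost equal. The log2 change of 0.77 (SE 0.67, adjusted p = 0.470) rested on that library and was -0.03 without it. SPRY2 in the second set was at 13.3, 11.0 and 11.9 FPKM in libraries labelled TGFbeta1 4 to 6, against 15.3, 14.0 and 14.8 FPKM in controls 4 to 6. The groups did not overlap, with a log2 change of -0.27 (SE 0.09, 95% interval -0.48 to -0.06, adjusted p = 0.340).

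SPRY4 was near the lower limit of the first set, at 0.672, 2.07 and 0.25 FPKM in TGFbeta1 libraries 1 to 3, against 0.134, 0.443 and 0.705 FPKM in controls 1 to 3. Without the filter on low values its log2 change there was 0.40 (adjusted p = 0.476). SPRY4 in the second set was at 6.02, 4.92 and 5.32 FPKM in libraries labelled TGFbeta1 4 to 6, against 5.38, 7.26 and 4.30 FPKM in controls 4 to 6. The groups overlapped, with a log2 change of -0.03 (SE 0.18, 95% interval -0.46 to 0.40, adjusted p = 0.970). Every library of the second set thus listed more SPRY4 than any of the first, in both groups, and levels in separate tables were not tested against each other.

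SPRED2 repeated the pattern of SPRY2 in the first set. It was at 11.0, 12.3 and 11.0 FPKM in TGFbeta1 libraries 1 to 3, against 1.81, 8.86 and 10.8 FPKM in controls 1 to 3. Control 1 was again the low library, and controls 2 and 3 also lay below every TGFbeta1 library. The log2 change was 0.85 (SE 0.55, 95% interval -0.52 to 2.22, adjusted p = 0.334), with a range of 0.20 to 1.24 over the alternatives. SPRED2 in the second set was at 10.7, 10.1 and 11.1 FPKM in libraries labelled TGFbeta1 4 to 6, against 10.4, 9.62 and 9.68 FPKM in controls 4 to 6. Those ranges overlapped, and the log2 change of 0.09 had an interval of -0.08 to 0.26 (adjusted p = 0.690).

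SPRED1 was at 4.76, 4.74 and 0.713 FPKM in TGFbeta1 libraries 1 to 3, against 2.83, 3.08 and 3.06 FPKM in controls 1 to 3. TGFbeta1 1 and 2 lay above every control and TGFbeta1 3 below every one. The log2 change was -0.06 (SE 0.49, adjusted p = 0.950), and 0.53 without TGFbeta1 3, a value that passed the test (adjusted p = 0.0266). SPRED1 in the second set was at 3.66, 3.74 and 3.08 FPKM in libraries labelled TGFbeta1 4 to 6, against 3.99, 4.56 and 3.85 FPKM in controls 4 to 6. There every labelled library lay below every control, with a log2 change of -0.19 (SE 0.10, 95% interval -0.44 to 0.06, adjusted p = 0.549). The difference between the sets for SPRED1 was -0.14 (adjusted p = 0.905), and -0.72 without TGFbeta1 3 (adjusted p = 0.00963).

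Counted over the 9 genes, 6 had groups that did not overlap in the second set, as did 19.3% of all genes tested. DUSP1 and DUSP5 were higher in every library labelled TGFbeta1, where 9.71% of all genes tested were, and DUSP4, DUSP10, SPRY2 and SPRED1 were lower in every one, where 9.62% were. In the first set the groups did not overlap for 2 of the 8 genes tested, DUSP6 and SPRED2, both higher with TGFbeta1, where 18.2% of all genes tested were higher, 25.1% were lower and 43.3% did not overlap in either direction. None of the 9 kept its groups apart in both sets. The difference between the sets passed the test for none of the 9 (limma), where 13.6% of 10548 genes were called. The difference stood at an unadjusted p under 0.05 for 3 (DUSP4, DUSP5 and DUSP10), where 27.0% of all genes did. Its median was -0.55 over the 9 genes and 0.06 over all genes tested. SPRY2 and SPRED2, each with a far lower control 1 in the first set, entered that median at -1.03 and -0.76.

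Single libraries with far lower values recurred in the first set. SPRY2, SPRED1 and SPRED2 each had a lowest library under 0.3 of the next lowest, at ratios of 0.0596 for SPRY2 and 0.204 for SPRED2 in control 1 and 0.252 for SPRED1 in TGFbeta1 3. The limit of 0.3 was chosen after these values were seen. Of all genes tested, 2.87% had such a library in the first set. The share was 1.47% in the second set, where none of the 9 genes did. The number of genes with their low value in a given library of the first set ran from 42 in control 3 to 60 in control 1. SPRED1 is listed with 1 transcript in both sets, SPRY2 with 2 (first set) and 1 (second set), and SPRED2 with 4 (first set) and 1 (second set). The low values are those of the main transcript.

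The genes around the feedback loop were counted from lists chosen by role, and each count is given beside the share of all genes tested. The 8 other members of the families (DUSP2, DUSP7, DUSP8, DUSP9, DUSP16, SPRY1, SPRY3 and SPRED3) had 3 genes tested in the first set and 5 tested in the second, and none passed in either. The unadjusted p was under 0.05 for none in the first set and for 1 in the second, DUSP16, where 11.2% of all genes stood under it. DUSP7, a cytoplasmic ERK phosphatase, was at 43.8 ± 2.48 FPKM with TGFbeta1 and 38.3 ± 3.61 FPKM in controls of the first set (SD, n = 3 each, log2 change 0.19, adjusted p = 0.208). It was at 42.2 ± 2.61 and 39.7 ± 1.18 FPKM in the same groups of the second set (log2 change 0.09, adjusted p = 0.674). For DUSP2, a nuclear phosphatase, the log2 changes were -0.19 in the first set (adjusted p = 0.452) and -0.14 in the second (0.563). DUSP16, which prefers JNK, was at 7.82 ± 0.648 FPKM in libraries labelled TGFbeta1 and 5.32 ± 0.165 FPKM in controls of the second set (log2 change 0.48, adjusted p = 0.124).

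In the kinase cascade itself, from RAS to the ERK, p38 and JNK kinases, 1 of 21 genes tested rose and 1 fell in the first set, where 20.9% of all genes were called, with a median of -0.01. NRAS rose to 20.9 ± 0.464 FPKM with TGFbeta1, against 15.1 ± 0.74 FPKM in controls (SD, n = 3 each, log2 change 0.45, adjusted p = 0.00885). HRAS fell to 24.5 ± 1.68 FPKM with TGFbeta1, against 32.2 ± 2.5 FPKM in controls (log2 change -0.38, adjusted p = 0.0350). HRAS failed the test when any library other than control 2 was left out (adjusted p between 0.0571 and 0.101) and with an equal sum (0.0661). Of 20 cascade genes in the second set none passed, with 1 at an unadjusted p under 0.05 (11.2% of all genes) and a median of 0.06. The genes with the smallest p there were MAPK3, which encodes ERK1 (log2 change 0.25, adjusted p = 0.388), and the p38 activator MAP2K3 (-0.36, 0.541).

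The list of other negative regulators of RAS and ERK also holds GRB2, SOS1, PTPN11, TESK1 and DYRK1A, which are not inhibitors of the pathway. Its counts and medians are therefore not those of negative regulators alone. Of its 15 tested genes, 2 rose and none fell in the first set, with a median of -0.01, beside 20.9% of all genes called in either direction. RASA1, a GTPase-activating protein for RAS, was at 32.6 ± 2.42 FPKM with TGFbeta1 and 22.3 ± 0.189 FPKM in controls (log2 change 0.53, adjusted p = 0.00720). CBL, a ubiquitin ligase for activated receptors, was at 5.35 ± 0.0428 and 3.63 ± 0.154 FPKM in the same groups (log2 change 0.46, adjusted p = 0.0100). None of 15 passed in the second set, none stood at an unadjusted p under 0.05 (11.2% of all genes), and the median was -0.05. There the log2 change was 0.15 for RASA1 (adjusted p = 0.498) and -0.40 for RASAL2, another GTPase-activating protein (0.554).

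Of the other genes used as readouts of ERK output, 1 of 9 tested rose and 1 fell in the first set. That share was close to the 20.9% of all genes called. The median was -0.40, and 2 of the 9 log2 changes were positive. This median was the value of IER3 (limma, adjusted p = 0.878). Its mean FPKM went the other way, at 100.5 ± 87.4 with TGFbeta1 and 56.3 ± 5.63 in controls. PHLDA1 (36.8 ± 30.4 FPKM) and CCND1 (45.4 ± 31.5 FPKM) also spread widely among TGFbeta1 libraries. Whether ERK output was lower was not tested. SPHK1, which encodes a sphingosine kinase, was at 19.9 ± 6.17 FPKM with TGFbeta1 and 8.44 ± 1.96 FPKM in controls (log2 change 1.12, adjusted p = 0.0405), and it failed the test when TGFbeta1 1, TGFbeta1 3 or any control was left out (adjusted p between 0.0539 and 0.115). MYC was at 31.9 ± 0.0425 FPKM with TGFbeta1 and 58.5 ± 16.3 FPKM in controls (log2 change -0.81, adjusted p = 0.0496), a call that was kept without control 2 (0.00411) and, just under the limit, with a minimum of 5 FPKM, and was lost under the other 14 alternatives (adjusted p between 0.0503 and 0.154). None of 9 passed in the second set, 2 stood at an unadjusted p under 0.05 (11.2% of all genes), and the median was 0.01. They were the stress-response gene IER3 (log2 change 0.26, adjusted p = 0.256) and the cytokine gene LIF (0.27, 0.446).

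Among early response genes, 1 of 7 tested rose and 1 fell in the first set, where 20.9% of all genes were called, with a median of -0.30. JUN, an AP-1 subunit, was at 29.3 ± 2.91 FPKM with TGFbeta1 and 17.5 ± 0.506 FPKM in controls (log2 change 0.71, adjusted p = 0.00450). SRF, which encodes serum response factor, was at 9.4 ± 0.572 FPKM with TGFbeta1 and 14.9 ± 0.21 FPKM in controls (log2 change -0.62, adjusted p = 0.00379). Of 9 tested in the second set none passed, with 2 at an unadjusted p under 0.05 (11.2% of all genes) and a median of 0.06. They were JUN, at 19.7 ± 1.14 FPKM in libraries labelled TGFbeta1 and 13.3 ± 0.841 FPKM in controls (log2 change 0.53, adjusted p = 0.0914), and EGR1 (-0.24, adjusted p = 0.359).

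Upstream, among growth factor receptors and ligands, 1 of 10 tested rose and 2 fell in the first set, where 20.9% of all genes were called, with a median of 0.13. TGFA, an EGF receptor ligand, was at 35.5 ± 7.05 FPKM with TGFbeta1 and 12.3 ± 0.775 FPKM in controls (log2 change 1.44, adjusted p = 0.00229). The receptor gene ERBB3 was at 1.29 ± 0.0262 FPKM with TGFbeta1 and 4.61 ± 0.702 FPKM in controls (log2 change -1.28, adjusted p = 0.00143). FGFR3 had a log2 change of -0.66 (adjusted p = 0.0416), lost without TGFbeta1 1, 2 or 3 or control 3 (adjusted p of 0.0761 to 0.113), and with scaling by median of ratios (0.0524), scaling to an equal sum (0.0635) or transcripts in both tables (0.0600). None of 11 passed in the second set, 4 stood at an unadjusted p under 0.05 (11.2% of all genes), and the median was 0.12. FGFR3 and the receptor gene MET had the smallest p there, with log2 changes of 0.35 (adjusted p = 0.210) and 0.45 (0.237).

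**Figure D4:**
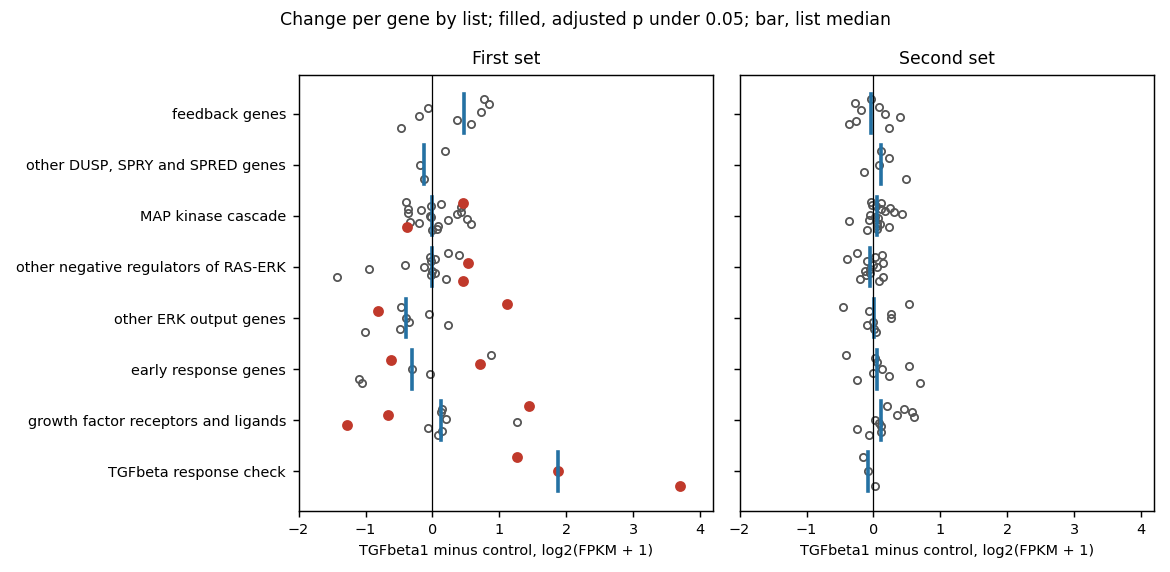
Log2 change of each tested gene, TGFbeta1 minus control on log2(FPKM + 1) (x axis), by list (y axis) in the first set (left) and the second set (right). Filled red points passed the test, open points did not, and blue bars give the list median. The list of other negative regulators also holds genes that are not inhibitors of the pathway, such as GRB2 and SOS1. The feedback genes have no filled point in either set, while all 3 genes of the TGFbeta response check are filled in the first set and none in the second.

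Profiles were compared over the 12 libraries, after the mean of each set was taken off, with 10547 genes. The feedback genes were left out of the ranking. Of the other genes, those most like DUSP6 were LNX2 (Pearson r = 0.97), SH3BP5L (0.94) and TNIP1 (0.94). TNIP1 was at 59.2 ± 0.571 FPKM with TGFbeta1 and 41.8 ± 7.69 FPKM in controls of the first set, and at 63.7 ± 8.03 and 52.1 ± 5.69 FPKM in the same groups of the second (SD, n = 3 each). For SPRY4 they were SHB (0.90), NIPAL3 (0.88) and GINS1 (0.85). These r describe likeness over libraries that share their 2 groups and sets, and the highest of many values is high by selection.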

How the data were processed

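RNA was sequenced from 12 libraries of MCF-12A cells, 6 given TGFbeta1 and 6 controls, grouped by the agent in the labels. RNA was extracted with Trizol, per the labels' protocols. Reads were checked with FastQC and handled with cutadapt, HISAT2 (2.0.4) and StringTie (1.2.3) on hg19, all named in the submitters' processing notes. No settings, strandedness or annotation release were at hand. FPKM values were deposited by the authors per protein-coding transcript, in 2 tables of 44112 transcripts (first set) and 29204 (second set). The unit of the first set is inferred from its values, since its header names none. The second table also holds the authors' deposited log2 group means and log2 fold changes of FPKM + 1, with linear fold changes, p-values and q-values. The files give no read totals, so sequencing depth is unknown, and intervals leave counting error out. Summed FPKM ran from 291801.6 to 318269.5 per library (first set) and from 338968.0 to 358432.6 (second set).

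Transcripts were summed per symbol, after 163 symbols of the first set were renamed through shared transcript identifiers. Genes with a mean of at least 1 FPKM were tested on log2(FPKM + 1) values by limma (version 3.58.1, R 4.3.3). That scale understates the change of low genes. The fit used a mean-variance trend and two-sided tests, adjusted by Benjamini-Hochberg over all genes tested. The same fit was run per transcript, and an interaction term over the 10548 genes in both tables gave the difference between the sets. An exact permutation test of 3 against 3 cannot go below 0.10 and was not used. Fits were tested on simulated data. Tables and figures used Python 3.11.15, numpy 2.4.6, pandas 2.3.3 and matplotlib 3.10.9. The feedback genes and the lists were chosen with earlier results of these data known. Named genes were all 9 feedback genes and the 3 genes of the TGFbeta response check. From each list came the 2 largest calls in each direction, or the 2 smallest p where none was called. The 3 genes outside the feedback genes most like DUSP6 and SPRY4 were also named. Alternatives were another pseudocount (0.1), no filter or a minimum of 5 FPKM, 3 scalings, 2 variance models, transcripts in both tables, each library left out, and the replicate number as a block.

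Without strand information, reads of DUSP6 and of the antisense gene AC024909.2, whose exons overlap in GENCODE v29, cannot be told apart. One gene of the TGFbeta response check and 1 of the leukocyte markers are not reported here.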

Additional observations from a re-analysis of the deposited data

Results flagged for a closer look

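The change with TGFbeta1 differed between the sets for all 3 genes of the TGFbeta response check, by the interaction term of limma. The second minus first log2 change was -1.42 for SMAD7 (adjusted p = 0.00024), -1.95 for SKIL (2e-06) and -3.68 for ITGB6 (1.4e-05). The cause was not tested, and each set has a table of its own. These 3 genes were chosen with earlier results of these data known. None of the 9 feedback genes passed the same test, where 13.6% of 10548 genes were called. Beyond the count of far lower libraries given above, no test was run for single libraries that stand apart.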

How the results depend on the processing

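The second set had 34 called genes, against 17 with an equal sum, 20 without the trend and 0 to 23 with 1 library left out. The first set had 2186, with 1354 to 2030 with 1 library left out, and 1003 called transcripts, against 655 without the filter on low values and 406 to 784 with 1 library left out. The second set had 45 called transcripts, 27 with a pseudocount of 0.1 and 35 to 45 with 1 library left out. Another scaling moved the median of all genes by 0.04 to 0.08 in the first set and by -0.04 to -0.10 in the difference between the sets, and the share of calls that were higher in the first set was 43% as deposited against 57.7% with an equal sum. Of the feedback genes, an equal sum gave 1 call in the first set (DUSP6), each of the 3 scalings 1 in the difference between the sets (DUSP4), and leaving out 1 library 0 to 2 higher in the first set, 0 to 1 higher and 0 to 2 lower in that difference, and 0 to 1 transcripts in the first set. None of the alternatives called any of these genes in the second set.

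Signs turned for values that had not passed the test. With 1 library left out, the first set's log2 change ran from -0.35 to 0.53 for SPRED1 (0.01 with an equal sum), from -1.16 to 0.11 for DUSP1 and from -0.03 to 1.18 for SPRY2. The difference between the sets ran from -0.72 to 0.15 for SPRED1. The second set's log2 change ran from -0.18 to 0.14 for SPRY4 and from -0.14 to 0.22 for ITGB6 (-0.00 with an equal sum). The cause was not tested.

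The labels do not say whether the replicate numbers pair the libraries. Deviations of same-numbered libraries correlated only weakly, at 0.007 to 0.046, which does not settle it. With the replicate number as a block, 1211 genes were called (first set) and 0 (second set), with 45 and 1 transcripts, and in the difference between the sets DUSP5 (1 higher, 0.59, adjusted p = 0.0274) and DUSP4 (1 lower, -0.61, 0.0228). Of the named genes called in the first set, NRAS (adjusted p = 0.0512), CBL (0.0556), FGFR3 (0.0652), HRAS (0.0731) and MYC (0.0867) did not pass with the block.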

Other observations

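Some genes of the same families changed in the first set but lay under 1 FPKM on average, and they were looked at after their values were seen. SPRED3, the third SPRED gene, was listed at 1.64, 1.99 and 1.70 FPKM in TGFbeta1 libraries 1 to 3, against 0.0343, 0.184 and 0.073 FPKM in controls 1 to 3. Without the filter on low values its log2 change was 1.34 (limma, SE 0.08, adjusted p = 0.00049). SPRY1, another Sprouty gene, was at 0.444, 0.331 and 0.332 FPKM with TGFbeta1, against 1.44, 1.09 and 2.30 FPKM in controls, a log2 change of -0.90 (adjusted p = 0.0196). DUSP9, an ERK phosphatase, was at 0.57, 0.62 and 0.468 FPKM with TGFbeta1, against 1.04, 1.05 and 1.28 FPKM in controls, a log2 change of -0.45 (adjusted p = 0.0138). DUSP8 (-0.26, adjusted p = 0.179) and SPRY3 (0.01, 0.873), also under 1 FPKM in the first set, did not pass. Without the filter, 2568 of the 13410 genes listed in the first set were called in either direction. In the second set the log2 changes without the filter were 0.27 for SPRED3 (adjusted p = 0.659), 0.12 for SPRY1 (0.928) and 0.23 for DUSP9 (0.854).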
